A study of Mus musculus with 6 samples.

Results

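The 10 genes described here encode members of the bone morphogenetic protein (BMP) pathway and the Id proteins, whose genes BMP signals are known to induce. They are the ligands *Bmp4* and *Bmp7*, the type I receptors *Bmpr1a* and *Bmpr1b*, the type II receptor *Bmpr2*, the inhibitory SMAD *Smad6* and the Id genes *Id1*, *Id2*, *Id3* and *Id4*. They were taken from a list of names, drawn up with earlier results of these data known, and are 10 of the 53378 genes with a value in every library. Of the 10, 8 had a mean normalized count of at least 10 over the 6 libraries and were among the 14840 genes tested, and *Bmp4* and *Smad6* were not. *Id4* passed that filter only through the libraries in which it was high. The cells were neural stem cells (NSCs), dividing cells that can give rise to neurons and glia, taken from the cortex of *Tbl1xr1* flox/flox mouse embryos at E14.5 and grown as neurospheres with the growth factors bFGF and EGF. Both groups carried the floxed allele, and cells received a lentivirus with Cre and GFP, whose recombinase removes the floxed exon, or with GFP only, and the GFP-positive cells were collected. The labels number the 3 control libraries as replicates 1, 1_1 and 2, and the 3 libraries given Cre, called here the libraries labelled Cre, as replicates 2, 2_2 and 3. Whether these came from separate cultures or embryos is not given in the sources used here, so the p-values measure the spread between these libraries, which may be technical.

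BMPs are secreted dimers that bind type I and type II receptor kinases, and the active type I receptor phosphorylates SMAD1, SMAD5 and SMAD9, which enter the nucleus with SMAD4. Among their best known targets are the Id genes, whose products lack a DNA-binding domain and hold E proteins away from the proneural factors that need them as partners. In the embryonic cortex BMP signals are known for patterning the dorsal midline and for favouring astrocytes over neurons and oligodendrocytes, and Id proteins for keeping progenitors undifferentiated. TBL1XR1 is a subunit of NCOR and SMRT co-repressor complexes, and the comparison asks which mRNAs differ when its gene has received Cre.

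The deposited normalized counts correspond to 7510615 to 14828100 reads on genes per library. *Tbl1xr1* mRNA was not lower in the libraries labelled Cre, with normalized counts of 2522, 2190 and 2721 in control and 3774, 3463 and 2905 in Cre (log2 fold change 0.45, SE 0.14, limma adjusted p = 0.0600). A count over the whole gene does not show whether 1 exon is missing, and the groups are therefore named by their labels. All 10 NSC markers were tested, and their summed normalized count ran from 39265 to 43344 in control and from 39668 to 42228 in Cre. Of their log2 fold changes 7 were positive and 3 negative, and the sum holds moves in both directions. *Vim* had means of 12650 in control and 9949 in Cre, and *Sox2* of 6579 and 8732, and neither passed. Only *Nes*, the NSC intermediate filament nestin, passed, and it fell (log2 fold change -0.85, limma adjusted p = 0.00384).

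Of the 8 members tested, 3 (*Id4*, *Bmp7* and *Id2*) passed an adjusted p under 0.05 with higher values in Cre, and 0 passed with lower values. Over all genes tested, 4.74% were higher, 5.22% were lower and 9.96% passed in either direction. The values of the groups did not overlap for 5 of the 8 members, against 30.3% of all genes tested. The plots of the members by library and of their fold changes show that the size of these differences was very unequal. *Id4* stood 11.5-fold higher, while *Bmp7* was 1.56-fold and *Id2* 1.36-fold higher, and the calls of *Bmp7* and *Id2* were lost when single libraries were left out or like-numbered libraries were averaged.

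**Figure D1:**
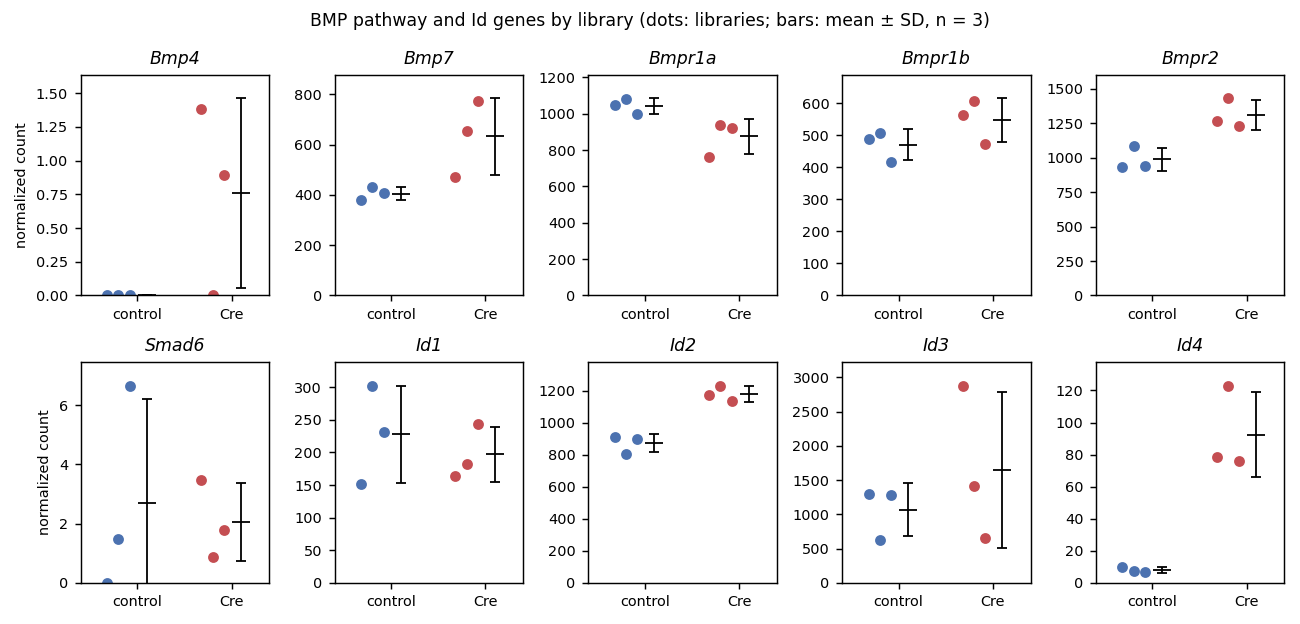
Normalized count (y axis, scale set per gene) of the 10 genes in the 3 control libraries and the 3 libraries labelled Cre. Dots are libraries, and bars are the mean ± SD (n = 3). *Id4* ran from 6.67 to 10.1 in control and from 76.1 to 123 in Cre, and *Id3* was spread from 646 to 2880 within Cre.

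**Figure D2:**
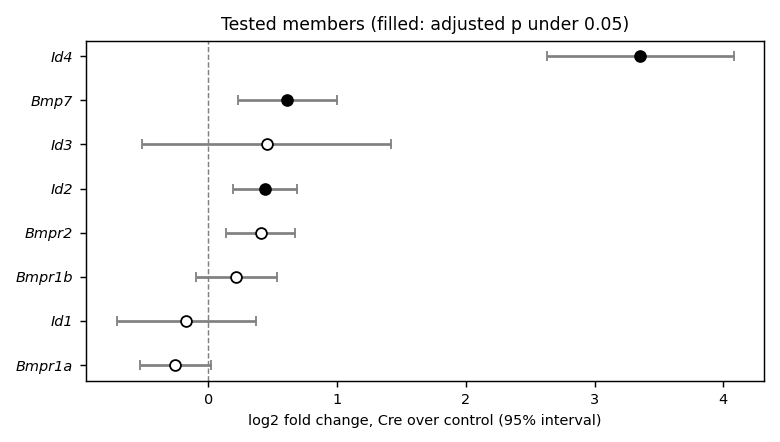
Log2 fold change of Cre over control (x axis) for the 8 members tested, with 95% intervals of the limma fit. Filled points passed an adjusted p under 0.05. *Id4* lies at 3.36, and all others lie between -0.26 and 0.61.

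The ligands differed in whether they were detected at all. *Bmp7* (ENSMUSG00000008999, GRCm38 chr2:172868012-172940321) had normalized counts of 379, 430 and 407 in control replicates 1, 1_1 and 2. In Cre replicates 2, 2_2 and 3 it had 470, 654 and 772. Every Cre library was above every control library, and the Cre libraries were more spread out than the controls, with means of 405 ± 25.6 (SD, n = 3) and 632 ± 152 (SD, n = 3). *Bmp7* rose by 0.61 on the log2 scale (SE 0.17, 95% interval 0.23 to 1.00, limma adjusted p = 0.0491). The call was lost without any 1 of the control libraries, without Cre replicate 2_2 or 3, with control 1 and 1_1 averaged (adjusted p = 0.135) and with both like-numbered pairs averaged (0.0502), and the adjusted p ranged from 0.0021 to 0.184 over 17 alternatives. The lowest fold change, 0.45, was that without Cre replicate 3, and the highest, 0.81, that without Cre replicate 2.

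*Bmp4* (ENSMUSG00000021835, GRCm38 chr14:46383525-46390669), a ligand made at the dorsal midline of the embryonic forebrain, had 0 reads in each control library. In Cre it had 2, 0 and 1 reads. No library was above 3 reads, which stand for 2.08 to 4.39 normalized counts depending on the library, so that a difference in *Bmp4* was not detectable at this depth. These limits and the count intervals given below cover counting error only.

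The 3 receptor genes of the list did not move together. *Bmpr2* (ENSMUSG00000067336), the type II receptor that phosphorylates the type I receptors, had 934, 1087 and 943 normalized counts in control and 1269, 1432 and 1227 in Cre. The groups did not overlap, with means of 988 ± 85.7 and 1309 ± 108 (SD, n = 3 each). The log2 fold change of 0.41 (SE 0.12, 95% interval 0.14 to 0.67) had a limma adjusted p of 0.058 and missed the threshold, which it passed in 1 of 17 alternatives (0.0391 without Cre replicate 2). *Bmpr1a* (ENSMUSG00000021796), the type I receptor used widely in the early neuroepithelium, had 1047, 1082 and 996 in control and 763, 939 and 923 in Cre. Its groups did not overlap either and lay in the opposite order to those of *Bmpr2*, but the log2 fold change of -0.26 (SE 0.12, 95% interval -0.53 to 0.016) had an adjusted p of 0.225. The libraries were made with a kit that does not mark strand, and *Gm17110*, with a mean normalized count of 64.9, overlaps *Bmpr1a* on the opposite strand in the GENCODE M1 annotation, so that reads of the overlap cannot be assigned by strand. *Bmpr1b* (ENSMUSG00000052430), the other type I receptor, had 487, 508 and 416 in control and 563, 607 and 473 in Cre. The groups overlapped, because the lowest Cre value lay under 2 control values, and the log2 fold change of 0.22 (SE 0.14, 95% interval -0.099 to 0.53) had an adjusted p of 0.383.

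Within each library, the ratio of *Bmpr1b* to *Bmpr1a* counts was 0.465, 0.469 and 0.418 in control and 0.738, 0.646 and 0.512 in Cre. Every Cre library had the higher ratio, with means of 0.451 ± 0.0286 and 0.632 ± 0.113 (SD, n = 3 each, two-sided exact permutation p = 0.1, the smallest that 3 against 3 libraries can give). This ratio was chosen after the values had been seen. Per kilobase of exon, *Bmpr1a* was at 164 ± 6.83 normalized counts in control and 138 ± 15.3 in Cre, and *Bmpr1b* at 78.9 ± 8.06 and 91.8 ± 11.5 (SD, n = 3 each), so that *Bmpr1a* remained the more abundant type I receptor in both groups. A bulk library cannot tell fewer cells with an mRNA from less of it per cell, which holds for every gene described here.

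*Smad6* (ENSMUSG00000036867), an inhibitory SMAD that BMP signals induce and that feeds back on the type I receptor, was close to the detection limit. It had 0, 1 and 5 reads in control and 5, 1 and 2 reads in Cre, equal to normalized counts of 0, 1.46 and 6.67 and of 3.46, 0.861 and 1.79. The groups overlapped fully. The ratio of Cre to control of the reads pooled over libraries, after scaling by their size factors, was 0.904 (exact 95% interval 0.275 to 3.16). The ratio of the mean normalized counts was 0.752. No difference was detectable at this depth.

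The Id genes are the members for which a BMP response is best known, and *Id4* is the member with the largest difference. *Id4* (ENSMUSG00000021379, GRCm38 chr13:48261116-48266028) had 10.1, 7.31 and 6.67 normalized counts in control, from 11, 5 and 5 reads. In Cre it had 78.3, 123 and 76.1 normalized counts, from 113, 143 and 85 reads. The lowest Cre value was far above the highest control value, and the means were 8.03 ± 1.82 and 92.5 ± 26.5 (SD, n = 3 each). *Id4* rose by 3.36 on the log2 scale (SE 0.33, 95% interval 2.63 to 4.08, limma adjusted p = 0.00018), and the log2 scale with 1 added to each value understates the change of a gene this low in control. It passed in all 17 alternatives, with log2 fold changes from 2.88 to 3.51. The filters at a mean of 10 and of 50 kept *Id4* (mean 50.3 over all libraries) only through its Cre values. In the fit without the filter its limma adjusted p was 3.37e-05. *A330033J07Rik*, which overlaps *Id4* on the opposite strand, had at most 3 reads in any library.

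*Id2* (ENSMUSG00000020644, GRCm38 chr12:25093799-25096092), widely expressed in neural progenitors, had 911, 806 and 896 normalized counts in control. In Cre it had 1172, 1233 and 1137. The groups did not overlap and had a similar spread, with means of 871 ± 56.9 and 1181 ± 48.4 (SD, n = 3 each). *Id2* rose by 0.44 on the log2 scale (SE 0.11, 95% interval 0.19 to 0.69, limma adjusted p = 0.0347). The fold change held between 0.38 and 0.47 over 17 alternatives, but the call was lost without any 1 of the control libraries or without Cre replicate 2_2. It was also lost with control 1 and 1_1 averaged (limma adjusted p = 0.108), with Cre 2 and 2_2 averaged (0.0544) and with both pairs averaged (0.126), with adjusted p from 0.0273 to 0.130 over the alternatives.

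*Id3* (ENSMUSG00000007872), which is often induced together with *Id1*, had 1299, 619 and 1280 normalized counts in control and 2880, 1417 and 646 in Cre. The spread within Cre covered nearly the whole range of the control libraries, and Cre replicate 2 was higher than all others. The log2 fold change of 0.45 (SE 0.44, 95% interval -0.51 to 1.42, limma adjusted p = 0.571) was not distinguishable from 0, and without Cre replicate 2 it was -0.077 (adjusted p = 0.903). *Id1* (ENSMUSG00000042745) had 151, 301 and 231 in control and 164, 183 and 244 in Cre. The groups overlapped, the log2 fold change was -0.17 (SE 0.25, 95% interval -0.71 to 0.37, adjusted p = 0.713), and without control replicate 1_1 it was 0.055 (adjusted p = 0.928). The plot of each member under each setting shows these sign changes beside the stable position of *Id4*.

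**Figure D3:**
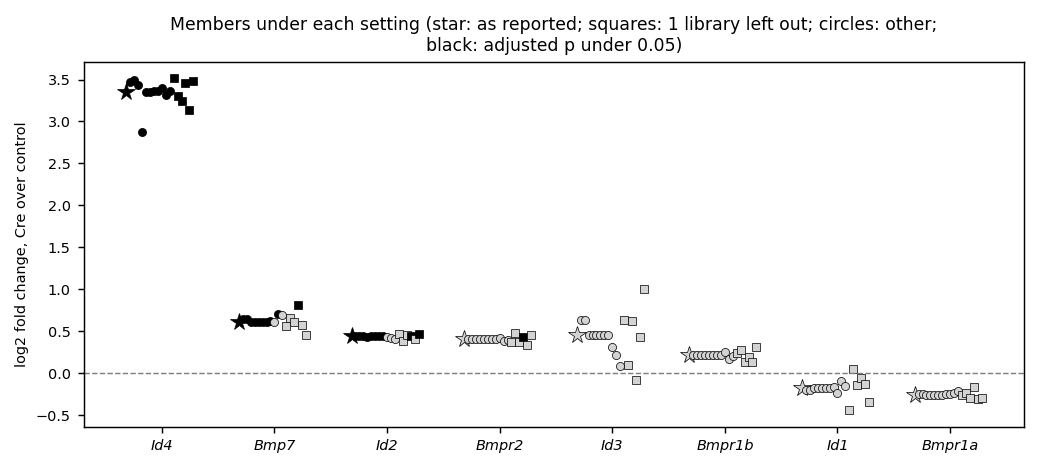
Log2 fold change of Cre over control (y axis) of the 8 members tested, as reported (stars), with 1 library left out (squares) and under the other alternatives (circles). Black marks passed an adjusted p under 0.05. All marks of *Id4* are black and lie between 2.88 and 3.51, while *Id3* runs from -0.077 to 1.00.

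Levels of different Id genes can be compared per kilobase of exon, here with the exon lengths of the GENCODE M1 models. The *Id3* model has 1791 exon bases, more than its RefSeq gene spans on GRCm38 (chr4:136143822-136145392). The order of *Id2* and *Id3* may therefore depend on the model used. The *Id4* model, with 1660 exon bases, spans less of the genome than its RefSeq gene on GRCm38 (chr13:48261116-48266028). The level of *Id4* per kilobase and its share may therefore depend on the model too. In control the order was *Id2* at 686 ± 44.8 normalized counts per kilobase, *Id3* at 595 ± 216, *Id1* at 196 ± 64.7 and *Id4* at 4.83 ± 1.10 (SD, n = 3). In Cre *Id2* was at 930 ± 38.1, *Id3* at 920 ± 634, *Id1* at 170 ± 36.3 and *Id4* at 55.7 ± 16.0. *Id2* and *Id3* did not differ from each other beyond their spread in either group, while *Id4* was the lowest of the 4 in every library. The summed level of the 4 genes ran from 1244 to 1623 per kilobase in control and from 1513 to 2720 in Cre, and these ranges overlapped (two-sided exact permutation p = 0.3). The share of *Id4* in that sum was 0.329% ± 0.0722 in control and 2.83% ± 1.01 in Cre (SD, n = 3 each, two-sided exact permutation p = 0.1, the smallest possible). The separation of the groups in this share follows from the *Id4* counts given above and is not a further test. Thus, with these exon lengths, *Id4* mRNA remained a small fraction of all Id mRNA where it was higher, as the stacked bars of Id mRNA show.

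**Figure D4:**
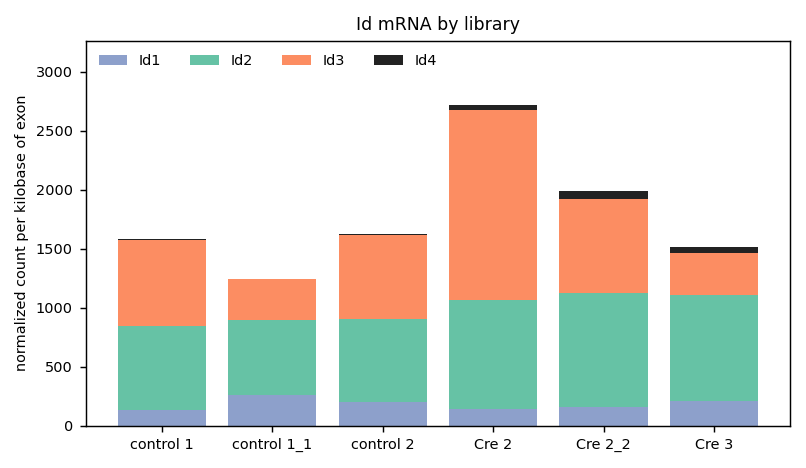
Normalized count per kilobase of exon (y axis) of *Id1*, *Id2*, *Id3* and *Id4*, stacked for each of the 6 libraries (x axis). The total runs from 1244 to 2720, and *Id4* makes up at most 3.72% of any bar.

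The sequences before the transcription starts of *Id4*, *Id2* and *Id3* are shown because *Id4* and *Id2* are the Id genes that passed the test and *Id3* is one that did not. No test compared *Id2* with *Id3*, whose log2 fold changes of 0.44 and 0.45 were alike, and they differ in their spread between libraries. They are the 250 bases before the annotated start, 5′ to 3′ on the gene's strand, from RefSeq on GRCm38.p6, at chr13:48260866-48261115 (plus strand) for *Id4*, chr12:25096093-25096342 (minus strand) for *Id2* and chr4:136143572-136143821 (plus strand) for *Id3*. Capitals mark GGCGCC, the core of a GC-rich element that BMP SMADs are known to bind, and CCAAT or its complement ATTGG, the CCAAT box bound by NF-Y.
Id4: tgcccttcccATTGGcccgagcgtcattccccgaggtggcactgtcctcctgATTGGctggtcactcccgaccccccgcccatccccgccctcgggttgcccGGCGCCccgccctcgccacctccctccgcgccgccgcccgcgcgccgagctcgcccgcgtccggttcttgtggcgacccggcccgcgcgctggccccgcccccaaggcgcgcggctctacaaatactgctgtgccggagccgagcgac
Id2: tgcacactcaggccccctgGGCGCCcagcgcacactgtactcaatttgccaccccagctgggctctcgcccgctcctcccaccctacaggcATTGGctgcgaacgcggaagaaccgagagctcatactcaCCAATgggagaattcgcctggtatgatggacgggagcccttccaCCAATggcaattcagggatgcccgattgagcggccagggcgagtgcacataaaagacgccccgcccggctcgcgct
Id3: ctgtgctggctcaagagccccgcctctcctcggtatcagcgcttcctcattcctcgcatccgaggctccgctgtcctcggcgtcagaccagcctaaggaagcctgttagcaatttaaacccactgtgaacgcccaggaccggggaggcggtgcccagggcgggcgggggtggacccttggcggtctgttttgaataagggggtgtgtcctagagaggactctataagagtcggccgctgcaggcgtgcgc

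GGCGCC was found at position -148 of *Id4* and -231 of *Id2*, counted back from the start, and not in the window of *Id3*. CCAAT was found 2 times before *Id4*, 3 times before *Id2* and 0 times before *Id3*. Of the 10 members 8 had a listed promoter, and *Bmp7* and *Id1* did not. GGCGCC was present in 4 of the 8, the others being *Bmpr1a* and *Bmpr2*, which did not pass the test. CCAAT was also present in 4 of the 8, the others being *Bmpr1a* and 1 start of *Bmpr1b*, which did not pass either. Among all 32536 promoters listed, 9.65% held GGCGCC and 33.8% held CCAAT within the same 250 bases, on either strand. These shares are per window, whatever its G and C content. The counts of members are per gene, over any of its starts, and the 2 are not directly comparable. The window of *Id4* was 75.6% G and C and those of *Id2* and *Id3* 62.8%, against a median of 52.4% over all promoters. CACCTG, the E-box to which E proteins can bind, was found before *Bmp4* and at 1 start of *Bmpr1b* (17.3% of all promoters), and AGGTCA, a half-site of nuclear receptors, at 1 other start of *Bmpr1b* (14.0%). These matches describe the letters of the windows and are not shown to be bound.

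The rest of the pathway was read from a list of 73 genes of BMP signalling that are not members. Of these 41 were tested, 2 were higher (*Skil* and *Sox9*), 4 were lower (*Eng*, *Nbl1*, *Fstl1* and *Cdkn1a*) and 35 did not pass. The 6 calls are 14.6% of the tested genes of the list, against 9.96% of all genes. With 1 library left out the count ran from 3 (7.32%, without control replicate 1 or 1_1) to 10 (24.4%, without Cre replicate 2). Over all genes 3.76%, 4.74% and 16.1% passed in these fits, in that order. Without the filter, where *Bmp3* and *Prdm16* enter and *Cdkn1a* is lost, 4 were higher and 3 lower. These were 10.9% of 64 genes of the list, against 5.23% of all 27585 genes in that fit. The median log2 fold change of the list was 0.088, and that of all genes tested was -0.00102. The plot of the pathway by role shows most genes close to 0.

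**Figure D5:**
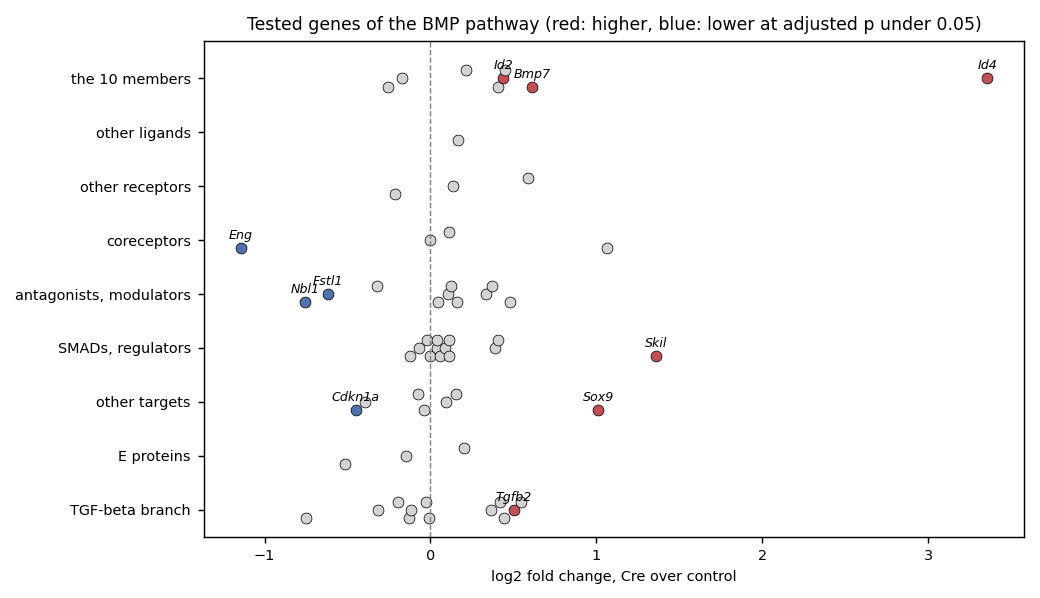
Log2 fold change of Cre over control (x axis) of the tested genes of the BMP pathway and of the TGF-beta and activin branch, by role (rows). Red points were higher and blue points lower at an adjusted p under 0.05. *Id4* at 3.36 and *Skil* at 1.36 lie farthest right, and *Eng* at -1.14 farthest left.

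Among 12 other BMP and GDF ligands only *Bmp6* reached the mean of 10, with 33.4 normalized counts in control and 37.8 in Cre (adjusted p = 0.762), and 7 had 0 reads in all 6 libraries. *Bmp3*, an atypical BMP known to oppose the others, had 0, 1 and 0 reads in control and 18, 27 and 19 reads in Cre. Every Cre library was above every control library, and the ratio after scaling was 43.4 (exact 95% counting interval 7.51 to 1740). In the fit without the filter *Bmp3* had a log2 fold change of 3.74 (limma adjusted p = 0.00226). *Bmp2* had 1 read in each control library and 7, 10 and 5 reads in Cre, a ratio of 4.97 (1.49 to 25.9), but did not pass in that fit (adjusted p = 0.186).

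None of the other receptors passed. *Acvr1*, a further type I receptor for BMPs, had means of 29.6 and 45.8 (log2 fold change 0.59, adjusted p = 0.264). Of the coreceptors, *Eng*, which encodes endoglin, a partner of BMP and TGF-beta receptors known from endothelium, had 82.6, 90.7 and 85.4 normalized counts in control and 40.2, 39.6 and 35.8 in Cre. Each group was tight and the groups were far apart, and *Eng* fell by 1.14 on the log2 scale (SE 0.22, limma adjusted p = 0.00847) and passed in all 17 alternatives. The 8 endothelial markers summed to 28.0 to 46.8 in control and 16.1 to 29.8 in Cre, and *Cdh5* and *Cldn5* had 0 reads in every library. Of these markers 1 was tested (*Kdr*, log2 fold change -1.34, adjusted p = 0.0677), which reached the filter only through its control values. The part of the endothelial markers in the difference of *Eng* was not tested. *Rgmb*, a coreceptor of the repulsive guidance family, had 6.42, 10.2 and 9.34 in control and 30.5, 18.9 and 11.6 in Cre, with groups that did not overlap, but had an adjusted p of 0.173. Its mean reached the filter only through its Cre values.

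Of 19 secreted antagonists and modulators 10 were tested, and 2 passed. *Fstl1*, a secreted glycoprotein that can bind BMPs, had 565, 686 and 617 in control and 406, 360 and 450 in Cre. *Nbl1*, a DAN family antagonist that binds BMPs, had 255, 219 and 292 in control and 124, 197 and 138 in Cre. Neither gene's groups overlapped, and both fell, *Fstl1* by 0.62 (SE 0.14, adjusted p = 0.0181) and *Nbl1* by 0.76 (SE 0.20, adjusted p = 0.0379) on the log2 scale. *Fstl1* passed in 11 and *Nbl1* in 12 of 17 alternatives, with adjusted p of up to 0.0847 and 0.156. *Chrdl1*, another BMP antagonist, was not called (means 246 and 315, adjusted p = 0.205), and the classical antagonist noggin (*Nog*) had at most 1 read in any library.

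No tested SMAD gene of the BMP branch passed. The receptor-activated *Smad9*, with a mean of 9.86, was under the filter and was not tested. The log2 fold changes of the receptor-activated *Smad1* and *Smad5* were -0.068 and 0.088, that of the common partner *Smad4* 0.11 and that of the inhibitory *Smad7* 0.041. Of 13 SMADs and regulators tested 1 passed. *Skil*, a SMAD co-repressor whose product recruits NCOR complexes, had 175, 159 and 167 in control and 339, 561 and 420 in Cre. All Cre values lay well above the controls, and *Skil* rose by 1.36 on the log2 scale (SE 0.19, limma adjusted p = 0.00133) and passed in all 17 alternatives.

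Of 14 other genes known as BMP targets 7 were tested and 2 passed, in opposite directions. *Sox9*, a transcription factor of progenitors and astrocytes, had 3786, 4374 and 4656 in control and 7352, 10100 and 8518 in Cre, and rose by 1.01 on the log2 scale (SE 0.14, limma adjusted p = 0.00175), passing in all 17 alternatives. *Cdkn1a*, which encodes the cell cycle inhibitor p21, had 3675, 3323 and 4126 in control and 2612, 2825 and 2683 in Cre, and fell by 0.45 (SE 0.12, adjusted p = 0.037), passing in 8 of 17 alternatives. *Hes1*, a Notch and BMP target, had 715, 622 and 704 in control and 1200, 558 and 399 in Cre, a spread within Cre in the same order of libraries as that of *Id3*. *Prdm16*, a transcription factor of cortical radial glia, was under the filter, with 0, 1 and 1 reads in control and 19, 24 and 23 in Cre. Its ratio after scaling was 22.4 (exact 95% counting interval 5.95 to 189), and it passed in the fit without the filter (log2 fold change 3.39, limma adjusted p = 0.00405).

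The E proteins that Id proteins bind did not pass. *Tcf3*, which encodes E2A, had 966, 1205 and 791 normalized counts in control and 671, 680 and 692 in Cre. The groups did not overlap, and the log2 fold change of -0.51 (SE 0.15) had a limma adjusted p of 0.0553. *Tcf4* and *Tcf12* had log2 fold changes of 0.20 and -0.14. In the TGF-beta and activin branch, which signals through SMAD2 and SMAD3, 12 of 16 genes were tested, and the median log2 fold change was -0.017. The ligand *Tgfb2* was the gene that passed, with 537, 530 and 623 in control and 728, 851 and 817 in Cre (log2 fold change 0.50, SE 0.13, adjusted p = 0.031, past the threshold in 10 of 17 alternatives).

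Some markers of glia were higher in Cre and others were not. Of 10 tested astrocyte markers 5 passed as higher (*S100b*, *Aqp4*, *Fgfr3*, *Apoe* and *Slc1a2*, log2 fold changes 1.16 to 3.10). *Aldh1l1*, a folate enzyme of astrocytes, had 18.4, 19.0 and 14.7 in control and 9.00, 2.58 and 4.48 in Cre, in the opposite order and without overlap (log2 fold change -1.65, adjusted p = 0.065). It reached the filter at a mean of 10 only through its control values. *Sparcl1* had a log2 fold change of -0.17. For astrocytes, the summed count of the 12 listed ran from 10185 to 11562 in control and from 14379 to 16821 in Cre. *Gfap*, the filament protein of mature astrocytes, had means of 1.82 and 4.73. Of 7 tested markers of the oligodendrocyte lineage 3 were higher (*Olig2*, *Pdgfra* and *Cspg4*). Their list's sums, 12906 to 14833 and 17822 to 20128, were mostly *Olig1* (means 7872 and 8952) and *Olig2* (5157 and 8380). The call of *Cspg4* was lost in 5 and that of *Pdgfra* in 2 of 17 alternatives, and that of *Aqp4* in 5 of 16. Of 8 tested neuronal markers *Elavl4* was higher and *Gap43* lower. The neuronal sums, 17710 to 18794 and 15275 to 17262, were nearly all *Map2* (means 9210 and 10541) and *Gap43* (8711 and 5196). The part of these glial and neuronal markers in the differences of *Id4*, *Id2* and *Bmp7* was not tested. Choroid plexus and cortical hem are known as sources of BMP ligands, and the sum over their 8 markers, 578 to 651 and 375 to 522, was nearly all *Otx2* (means 616 and 451, adjusted p = 0.0739), with *Ttr*, *Lmx1a* and *Wnt3a* at 0 reads in every library. The sum over the meningeal markers, 290 to 329 and 200 to 312, was nearly all *Foxc1* (means 299 and 226). That over the microglial markers, 164 to 206 and 168 to 274, was nearly all *Csf1r* (means 183 and 222), and *Col1a2*, *Aldh1a2*, *Pdgfrb*, *Tmem119* and *C1qa* had 0 reads in every library.

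Averaged over the 4 Id genes, the log2 level relative to each gene's own mean was -0.46, -0.62 and -0.45 in control and 0.66, 0.62 and 0.24 in Cre. *Id4* carries most of this difference: over *Id1*, *Id2* and *Id3* alone the values were -0.15, -0.24 and 0.033 in control and 0.39, 0.12 and -0.15 in Cre, and the groups overlapped. The genes most like the profile over all 4 Id genes, across the 6 libraries, among 11127 with a mean of at least 50, were *Lamp2* (Pearson r = 0.996), *Wipi1* (0.996), *Rad17* (0.996), *Akap9* (0.995) and *Bfar* (0.994). These correlations are over 6 libraries that share 1 comparison and are given as a description. *Lamp2* and *Wipi1* encode proteins of lysosomes and autophagy, and *Rad17* a DNA damage checkpoint protein.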

How the data were processed

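RNA-seq of 3 control libraries and 3 libraries labelled Cre was analysed. Groups were taken from the sample labels, and the study's methods describe the viruses. Members and gene lists were chosen with earlier results of these data known. RNA was prepared with TruSeq RNA v2. The submitters' processing notes name STAR 2.7, DESeq2 and mm10, and the study's methods name TopHat with mm9 and mm10. The counter, its strand setting and the annotation are not given in the sources used here.

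The deposited table holds normalized counts, a signal that the authors made by dividing read counts by 1 size factor per library. It also holds the authors' own comparison, with log2 fold changes and their errors, a test statistic as a score and p-values, which were not used. It has 53379 genes, of which 1 has a missing value and was left out and 873 have no name. Where a symbol repeats, the row with the highest mean was used. The value of 1 read was recovered from the lowest values of each library, and 100% of values were whole reads to within 0.01 read. The depth was 7510615 to 14828100 reads on genes.

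For the 14840 genes with a mean of at least 10, 1 was added to each normalized count, log2 was taken, and lmFit and trended eBayes of limma 3.58.1 were run in R 4.3.3. P-values were adjusted by Benjamini-Hochberg over all these genes, at a threshold of 0.05. The scripts were tested on simulated data. Alternatives were fits of the recovered reads with DESeq2 1.42.0 or with edgeR 4.0.16 (quasi-likelihood, TMM), adding 0.5 or 5 in place of 1, dropping the filter or raising it to a mean of 50, scaling by TMM or by total count, averaging control 1 with 1_1, Cre 2 with 2_2 or both pairs, leaving out each library, and for counts a threshold of 0.1. A fit with a replicate block, chosen later with the data in view, is not among the 17 alternatives counted for single genes. Genes named are the members, the listed genes that passed, *Tbl1xr1*, marker genes that passed and the 5 genes most like the mean Id profile. Other genes of the lists were named after their values were seen. Low genes were compared by their reads, pooled over the libraries of a group and divided by the summed size factors, with exact 95% intervals. These ratios can differ from those of the mean normalized counts. Permutation tests were two-sided, with scipy 1.17.1. Gene positions and promoters are from RefSeq on GRCm38.p6, and exon lengths and overlaps from GENCODE M1 on mm9, matched by identifier or symbol.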

Additional observations from a re-analysis of the deposited data

How the results depend on the processing

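Over all genes 1478 passed, 704 higher and 774 lower, and the count was 1483 with edgeR and 1755 with DESeq2. It was 660 with control 1 and 1_1 averaged, 885 with both pairs averaged, 2380 at a threshold of 0.1, and 558 (without control replicate 1) to 2396 (without Cre replicate 2) with 1 library left out. Of the members 3 passed, 1 (*Id4*) with control 1 and 1_1 averaged, 1 with both pairs averaged, and 1 to 4 with 1 library left out. It was 1 without any 1 of the control libraries or Cre replicate 2_2, 2 without Cre replicate 3 and 4 without Cre replicate 2. Of the wider list 6 passed, 3 with control 1 and 1_1 averaged and 3 to 10 with 1 library left out, with 3 without control replicate 1 or 1_1 and 10 without Cre replicate 2. The log2 fold change of *Id1* ran from -0.44 (without control replicate 1) to 0.055 (without control replicate 1_1), and that of *Id3* from -0.077 (without Cre replicate 2) to 1.00 (without Cre replicate 3), each with a change of sign. Each fit with 1 library left out or a pair averaged has fewer samples, and the cause of these changes was not tested further. That of *Tbl1xr1* stayed positive, from 0.36 to 0.55, with adjusted p from 0.0234 to 0.234. The groups share only replicate number 2, and the labels do not say what 1_1 and 2_2 mean. A fit with the replicate number as a block, reading these as 1 and 2, was added after the data were seen, rests for the group difference on the 3 libraries numbered 2 and has 2 residual degrees of freedom. It called 180 genes, 1 member (*Id4*, log2 fold change 3.69, adjusted p = 0.0145) and 0 genes of the wider list (8 at an unadjusted p under 0.05, and 7 called by each of edgeR and DESeq2 without the block). No sign of a member changed. Reads limit what can be said of *Bmp4* and *Smad6*.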

Other observations

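*Hes5*, a Notch target of NSCs, had 1205, 1445 and 1803 normalized counts in control and 1936, 1130 and 1051 in Cre, so that *Id3*, *Hes1* and *Hes5* were each highest in Cre replicate 2. *Bambi*, a pseudoreceptor that damps BMP signals, had 3, 1 and 1 reads in control and 18, 8 and 4 in Cre, a ratio of 4.07 (exact 95% counting interval 1.56 to 13.4), and did not pass in the fit without the filter (limma adjusted p = 0.251). The ratio of *Bmpr2* to *Bmpr1a* counts was 0.892, 1.00 and 0.946 in control and 1.66, 1.52 and 1.33 in Cre, with every Cre library above every control library. These genes and this ratio were chosen after their values had been seen.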
